A study of Homo sapiens with 6 samples.

Results

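The genes described here were the cadherin superfamily genes that HCT116 cells transcribed above a minimal level, together with PCDH7, which stood out among them in the comparison of RBM47-overexpressing cells with control cells. Members were chosen by gene symbol and by count. A protein-coding gene had to be named as a cadherin, a protocadherin, a FAT gene, a desmoglein, a desmocollin, a CELSR gene or a DCHS gene, to lie outside the Y chromosome, and to have a mean of at least 5 counts over the 6 libraries. CDH1 was left out by this rule. Of 28491 genes in the count table, 16530 were protein-coding, 70 carried such a symbol, and 26 of those passed the limit. PCDH7 was selected on its rise in these same libraries, so its change is given as a description, without a test. Just inside the limit lay PCDHGB2, PCDHGA9 and PCDHGA11, with mean counts of 7.0, 9.83 and 10.0, and just outside it lay PCDHGA8, PCDHB14 and DSG1, with 4.33, 4.17 and 4.17.

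HCT116 is a human colorectal carcinoma cell line. Cells received, by lipofection, either an RBM47 expression plasmid (RBM47-OE, 3 libraries) or a control plasmid (NC, 3 libraries), and poly(A) RNA was sequenced 48 h later. RBM47 is an RNA-binding protein, and the study asked how raising its level changes the transcriptome. The plasmid supplies RBM47 RNA from its own promoter, the transfection is transient, and both groups passed through it. The sources differ on the plasmid (pIRES-hrGFP-1a in the methods, pcDNA3.1-3xFlag in the labels), on the medium (McCoy's 5A or DMEM) and on the library kit (KC Stranded or NEBNext Directional). The labels do not say that replicates came from separate cultures, so each p-value measures the spread between these libraries only.

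The libraries held 26792409 to 35477983 counts on genes. RBM47 stood at 1.91, 2.33 and 1.94 FPKM (fragments scaled to gene length and to the mapped fragments of the library, as deposited) in NC and at 131.3, 130.4 and 127.0 in RBM47-OE. Epithelial markers were high in both groups, with KRT19 at a mean of 971.7 and 949.9 FPKM and EPCAM at 76.3 and 95.8 in NC and RBM47-OE. KRT8 stood at 538.4 and 468.4 and KRT18 at 364.0 and 298.4, each lower in every RBM47-OE library than in every NC library. CLDN4 stood at 56.5 and 52.6, ELF3 at 26.7 and 25.6, and CLDN3 at 17.9 in both groups. Among 13 markers of other cell types, PTPRC, COL1A2 and DCN were not listed in the count table, COL1A1 was at 1.53 FPKM in both groups and SYT1 at 6.29 and 8.45, and the other 8 stayed at or below a group mean of 0.13. RBM47-OE replicate 1 stood apart from its group. Its counts differed from replicates 2 and 3 with a chi-square per degree of freedom of 17.9 and 19.6, against 9.02 between replicates 2 and 3 and 3.40 to 4.84 within NC.

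Cadherins are transmembrane proteins whose extracellular repeats bind calcium and join neighbouring cells, usually by binding the same cadherin on the other cell. Classical cadherins hold adherens junctions through catenins that reach the actin cytoskeleton, while desmogleins and desmocollins hold desmosomes and bind keratin filaments through plaque proteins. The large FAT, DCHS and CELSR proteins act in planar polarity and growth control, and protocadherins give cells adhesive identities, above all in neurons. The clustered protocadherin genes lie in 3 arrays in which each gene has its own variable first exon, and in the alpha and gamma arrays these exons are spliced to constant exons shared by the whole array.

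The shared exons are shown because they set what can be counted. In the canonical transcripts of GENCODE 44, the 3 alpha members shared 3 exons of 2869 bases in all and the 6 gamma members shared 3 exons of 2177 bases. Reads on these exons fit every member of an array equally well, and the sources used here do not state how they were counted. The opening 30 bases of both sets of constant exons follow (GRCh38, plus strand, chr5:140978949-140978978 for alpha and chr5:141494807-141494836 for gamma), with capitals marking the 22 positions at which they are identical.
PCDHA constant exon: CcAcgaCaGCCCAACcCtGACTGGCGTTaC
PCDHG constant exon: CaAgccCcGCCCAACaCgGACTGGCGTTtC
Shared exons made up 40.9% to 51.3% of the exonic length of the alpha members and 32.8% to 45.2% of that of the gamma members. Values of single clustered genes are therefore uncertain, and their sum was tested as well.

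Counts on the 26 members, which leave out CDH1, were dominated by a single gene. FAT1, a giant cadherin that acts in cell polarity and growth control, had a mean of 92.6 FPKM in the NC libraries and 112.2 FPKM in the RBM47-OE libraries, and it took 67.6% to 70.5% of all counts on the 26 members. CDH3 (P-cadherin, a classical cadherin of epithelia) came next in NC with a mean of 31.0 FPKM, ahead of DSG2 (a desmoglein of simple epithelia) with 21.5. In RBM47-OE, DSG2 had 28.5 and CDH3 28.25, and their ranges overlapped. PCDH1 (an epithelial protocadherin) followed in both groups, with 9.09 and 8.19 FPKM. Below it the order depended on the group. In NC it ran from CELSR2 (4.0 FPKM) through DSC2 (3.82), CDH24 (3.44) and CELSR1 (3.24) to PCDH7 (2.53), and among these neighbours the libraries overlapped between CDH24 and CELSR1 alone. In RBM47-OE it ran from DSC2 (5.04 FPKM) through PCDH7 (4.36), CELSR2 (4.03) and CELSR1 (3.44) to CDH24 (2.85), and the libraries overlapped between DSC2 and PCDH7 and between PCDH7 and CELSR2. Averaged over all 6 libraries, the other 17 members lay below 2 FPKM, and 6 of them below 0.1. CDH2 (N-cadherin, the classical cadherin of mesenchymal and neural cells) was outside the limit, with a mean of 1.33 counts. Of the counts of NC replicates 1, 2 and 3, 0.245%, 0.248% and 0.259% fell on the 26 members. Of those of the RBM47-OE replicates, 0.275%, 0.322% and 0.287% did. Each share in RBM47-OE was higher than each share in NC. In RNA from bulk cells, fewer cells that express a gene and less RNA per cell cannot be told apart.

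**Figure D1:**
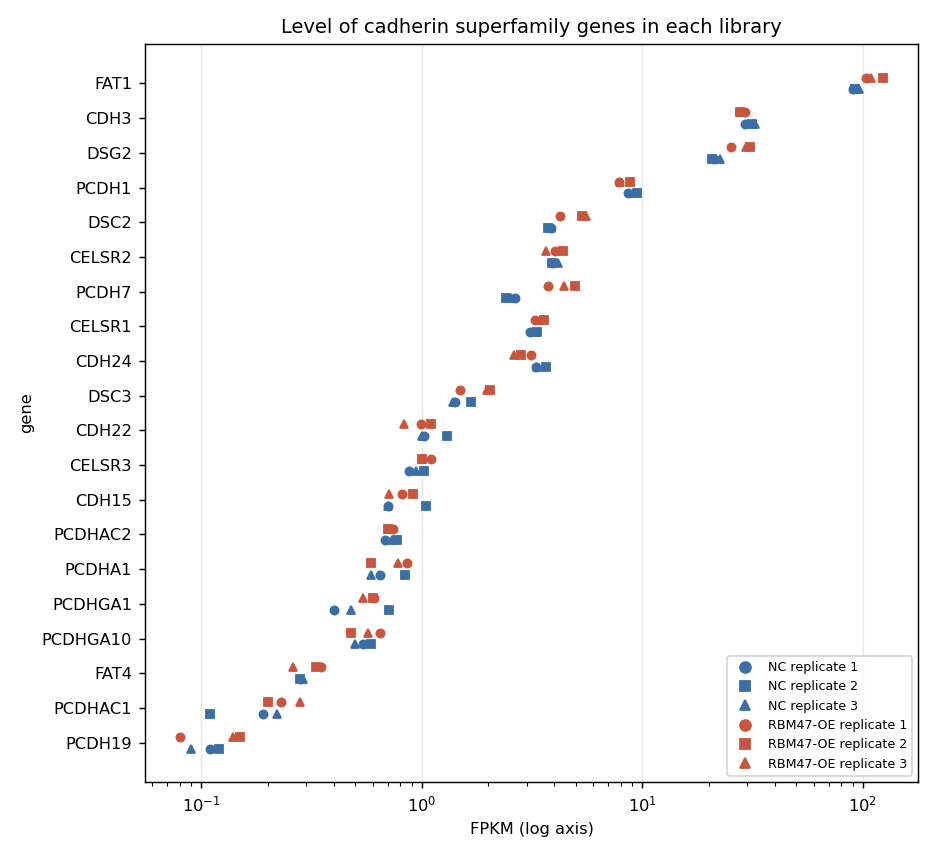
Level of the 20 members with a mean of at least 0.1 FPKM in each library, with FPKM on a log axis and genes ordered by their mean. Blue points are NC and red points RBM47-OE libraries, the marker shape gives the replicate, and FAT1 lies above all other members, between 89.9 and 123.9 FPKM.

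Of the 26 members, 24 passed edgeR's filter on low counts, and PCDHGA9 and PCDHGB2 did not. In edgeR's quasi-likelihood test on the 16260 genes that passed, with Benjamini-Hochberg adjustment over those genes, 3 of the 23 tested members other than PCDH7 were higher in RBM47-OE at an adjusted p under 0.05 and 3 were lower. The higher ones were DSG2, DSC2 and FAT1, and the lower ones CDH3, PCDH1 and CDH24. This was 13% in each direction, where 19.1% of all genes tested were higher and 16.9% were lower. That share was not above the background in either direction. At an unadjusted p under 0.05, 3 of the 23 were higher and 4 lower (23% and 21.3% of all genes). DESeq2 gave 19 of them an adjusted p and called 3 higher and 3 lower, where 20.8% and 18% of all genes with such a value were. The median log2 fold change of the 23 members was -0.0039, against 0.000040 over all genes. On CPM, the counts scaled to library size, here normalized by the trimmed mean of M values (TMM), the groups did not overlap in 7 of the 23, with RBM47-OE on top in 3 (23.2% of all genes) and NC on top in 4 (23.4% of all genes). The thresholds of the study's methods (fold change over 1.5 and unadjusted p under 0.01) were met in edgeR by 2.38% of all genes and by 0 of the 23.

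A second fit took out each library's trend with GC content, because gene levels in these libraries followed the GC content of exons. A loess curve of each library's difference from the mean of all libraries against exonic GC content was used as an offset, called the GC offset below. With it, 5.97% of all genes were higher and 8.57% lower. Of the 23 members other than PCDH7, CELSR1 was higher and 0 were lower, and the 6 calls made without the offset were lost. At an unadjusted p under 0.05 in that edgeR fit, 4 of the 23 were higher and 0 lower, where 12.9% and 15.3% of all genes were. Why gene levels followed GC content in these libraries was not tested.

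**Figure D2:**
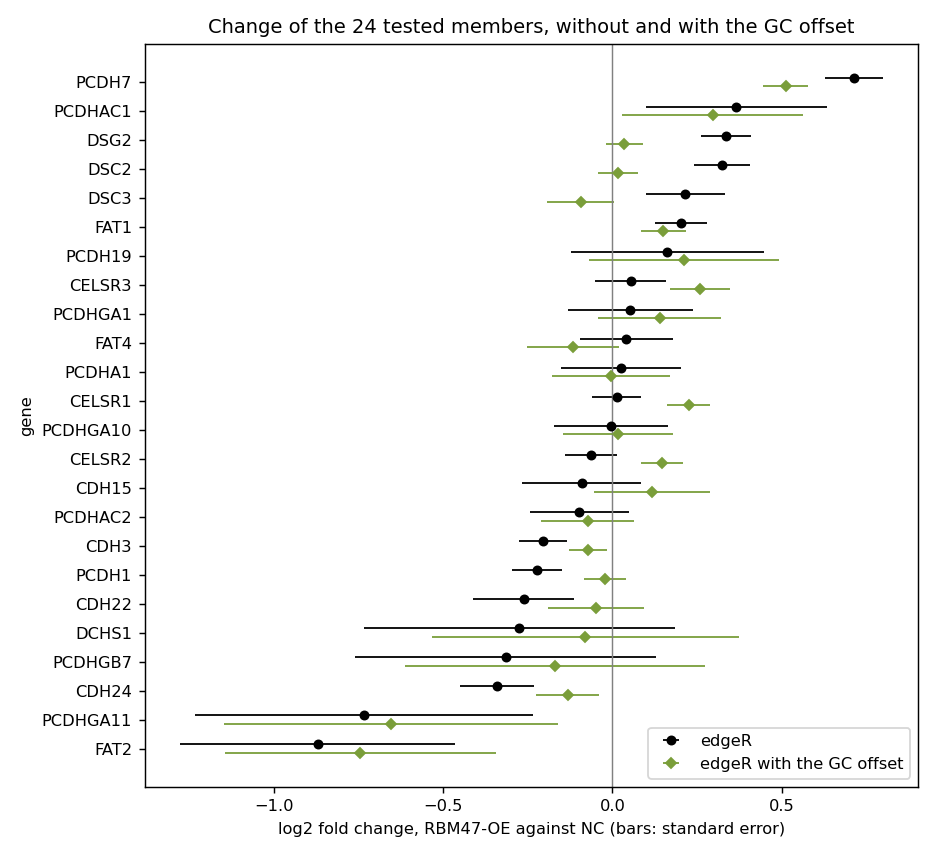
Log2 fold change of RBM47-OE against NC for the 24 tested members, from edgeR without an offset (black) and with the GC offset (green), with bars for the standard error. PCDH7 lies highest in both fits, at 0.71 and 0.51, while DSG2 and DSC2 move from 0.34 and 0.32 to 0.04 and 0.02.

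PCDH7 (ENSG00000169851, chr4:30720369-31146805, plus strand of GRCh38) is a non-clustered protocadherin whose cytoplasmic part binds the phosphatase PP1 alpha and the SET protein. Replicates 1, 2 and 3 of NC held 992, 1179 and 1034 counts on this gene, and those of RBM47-OE held 1699, 2104 and 1729. As FPKM the NC libraries stood at 2.64, 2.41 and 2.53 and the RBM47-OE libraries at 3.72, 4.96 and 4.40. Every RBM47-OE library thus lay above every NC library, and replicate 1 was the lowest of the RBM47-OE group. The means were 2.53 ± 0.115 FPKM (SD, n = 3) and 4.36 ± 0.621 FPKM (SD, n = 3). This difference was larger than the spread within either group. On the log2 scale the fitted change was 0.71 (standard error 0.086), or 1.64-fold, which placed PCDH7 above 98.5% of all genes tested. Against the NC mean, the single RBM47-OE libraries lay 0.52, 0.87 and 0.73 higher, so replicate 1, the library that stood apart, gave the smallest difference. With any of the 6 libraries left out the change stayed between 0.63 and 0.81. Taking out the GC trend gave 0.51 (standard error 0.067), below a fold of 1.5. Exonic GC content was 42.6% over the gene, but 56.8% in the coding part of the canonical transcript and 33.6% in its 3' UTR of 3951 bases.

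No other non-clustered protocadherin among the members was called higher. PCDH1 (ENSG00000156453, chr5:141853090-141879246, minus strand), which lies beyond the gamma array on the same chromosome arm, was lower, with a log2 fold change of -0.22 (standard error 0.074, adjusted p = 0.020 in edgeR's quasi-likelihood test). It stood at 59.4, 65.2 and 62.9 CPM (TMM-normalized) in NC and at 52.8, 56.0 and 52.0 CPM in RBM47-OE, so the groups did not overlap on that scale. As FPKM they did, at 8.60, 9.51 and 9.17 in NC against 7.88, 8.77 and 7.93 in RBM47-OE. With the GC offset the change of PCDH1 was -0.02 (edgeR adjusted p = 0.85), with scaling to library totals its adjusted p was 0.11, and without NC replicate 2, NC replicate 3 or RBM47-OE replicate 3 it was 0.14, 0.085 and 0.054. PCDH19, a protocadherin on the X chromosome that is best known from epilepsy, held 32, 45 and 30 counts in NC and 30, 52 and 43 in RBM47-OE. Its fitted change was 0.16 (standard error 0.28, edgeR adjusted p = 0.70), and the groups overlapped. That standard error was too wide to tell its change from that of PCDH7.

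Of 7 listed desmosomal cadherins, DSG2, DSC2 and DSC3 were members. DSG2 and DSC2 were higher in RBM47-OE, where 19.1% of all genes tested were higher. All 7 desmosomal cadherin genes lie within a single cluster on chromosome 18. DSG2 (ENSG00000046604, chr18:31498177-31549008, plus strand), the desmoglein of simple epithelia, stood at 21.3, 20.7 and 22.5 FPKM in the NC libraries and at 25.2, 30.8 and 29.5 in the RBM47-OE libraries. The groups did not overlap, and replicate 1 was again the lowest of RBM47-OE. edgeR gave a log2 fold change of 0.34 (standard error 0.074, adjusted p = 0.0012 in the quasi-likelihood test). DSC2 (ENSG00000134755, chr18:31058840-31102522, minus strand), its desmocollin partner, stood at 3.85, 3.74 and 3.87 FPKM in the NC libraries and at 4.22, 5.35 and 5.54 in the RBM47-OE libraries, also without overlap. Here edgeR gave a log2 fold change of 0.32 (standard error 0.083, edgeR adjusted p = 0.0037). DSC3, which is more abundant in stratified epithelia, stood at 1.42, 1.67 and 1.39 FPKM in the NC libraries and at 1.49, 2.03 and 1.97 in the RBM47-OE libraries. Here the groups overlapped, and DSC3 had a log2 fold change of 0.22 (standard error 0.12, edgeR adjusted p = 0.15), or 0.34 (edgeR adjusted p = 0.011) without RBM47-OE replicate 1.

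The exonic GC content of these desmosomal genes was 39.2% to 39.4%, the lowest among the members. Under the GC offset the log2 fold changes were 0.04 for DSG2 (edgeR adjusted p = 0.73), 0.02 for DSC2 (edgeR adjusted p = 0.89) and -0.09 for DSC3 (edgeR adjusted p = 0.59). With any single library left out, DSG2 and DSC2 kept an edgeR adjusted p of at most 0.021 and 0.030 in the fit without the offset.

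Of 9 large cadherin genes, 7 were members, and FAT1 was the only one of these called. Of all genes tested, 19.1% were higher and 16.9% lower. FAT1 (ENSG00000083857, chr4:186587794-186726722, minus strand) stood at 89.9, 91.9 and 96.0 FPKM in the NC libraries and at 104.0, 123.9 and 108.8 in the RBM47-OE libraries, or 92.6 ± 3.11 (SD, n = 3) and 112.2 ± 10.4 (SD, n = 3) on average. The groups did not overlap. This was a log2 fold change of 0.20 (standard error 0.077, adjusted p = 0.039 in edgeR's quasi-likelihood test). The adjusted p was 0.14 with the GC offset and 0.63 with an offset for gene length, and 0.18, 0.17, 0.082 and 0.11 without NC replicate 1, 2 or 3 and without RBM47-OE replicate 2. FAT1 thus passed the threshold on all 6 libraries but not without any one of those 4.

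The CELSR genes encode multi-pass cadherins of the planar polarity pathway. CELSR2, the most abundant uncalled gene of the large cadherins, stood at 3.93, 3.90 and 4.17 FPKM in the NC libraries and at 4.02, 4.39 and 3.67 in the RBM47-OE libraries, with a log2 fold change of -0.06 (standard error 0.076, edgeR adjusted p = 0.57), which was above 0 with library totals, with the GC offset and on FPKM. CELSR1 and CELSR3, named here after their values were seen, had log2 fold changes of 0.01 (standard error 0.072, edgeR adjusted p = 0.91) and 0.05 (standard error 0.10, edgeR adjusted p = 0.73). Under the GC offset all 3 values were more positive, at 0.23 for CELSR1 (edgeR adjusted p = 0.020), 0.15 for CELSR2 (edgeR adjusted p = 0.12) and 0.26 for CELSR3 (edgeR adjusted p = 0.051). Their exonic GC content was 61.2% to 61.6%, above the member median of 52.0%.

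FAT4, DCHS1 and FAT2 were the low members of this subgroup, also named after their values were seen. FAT4, a receptor for DCHS1 in the planar polarity pathway, held 175 to 274 counts per library with a log2 fold change of 0.04 (standard error 0.14). DCHS1 held 6 to 25 counts. FAT2 held 23, 21 and 15 counts in NC and 11, 14 and 9 in RBM47-OE, so the groups did not overlap, but the log2 fold change of -0.87 had a standard error of 0.41 and did not pass (edgeR adjusted p = 0.098).

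The classical and type II cadherins contributed 4 members, of which 2 were lower in RBM47-OE, where 16.9% of all genes tested were lower. CDH3 (ENSG00000062038, chr16:68636189-68727468, plus strand), the main classical cadherin of this set, stood at 29.3, 31.4 and 32.4 FPKM in the NC libraries and at 29.2, 27.7 and 27.8 in the RBM47-OE libraries. The groups did not overlap, although RBM47-OE replicate 1, at 29.23, lay just under NC replicate 1, at 29.27. CDH3 had a log2 fold change of -0.20 (standard error 0.071, adjusted p = 0.025 in edgeR's quasi-likelihood test). CDH24 (ENSG00000139880, chr14:23047062-23057538, minus strand), a type II cadherin, fell from 3.30, 3.68 and 3.35 FPKM to 3.12, 2.83 and 2.61, with a log2 fold change of -0.34 (standard error 0.11, edgeR adjusted p = 0.017). For CDH24 the groups did not overlap, and replicate 1 again lay nearest to NC.

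Neither call held in every setting. In the fit with the GC offset the changes were -0.07 for CDH3 (edgeR adjusted p = 0.44) and -0.13 for CDH24 (edgeR adjusted p = 0.39). With library totals the adjusted p was 0.083 for CDH3 and 0.055 for CDH24. Both calls also needed NC replicate 2 and RBM47-OE replicates 2 and 3. For CDH3 it was 0.12, 0.15, 0.082 and 0.055 without NC replicate 2, NC replicate 3, RBM47-OE replicate 2 and RBM47-OE replicate 3, and for CDH24 it was 0.10, 0.061 and 0.070 without NC replicate 2, RBM47-OE replicate 2 and RBM47-OE replicate 3. CDH15 (M-cadherin, a cadherin of muscle) stood at 0.70, 1.05 and 0.70 FPKM in the NC libraries and at 0.81, 0.91 and 0.71 in the RBM47-OE libraries, with overlapping groups and a log2 fold change of -0.09 (standard error 0.18, edgeR adjusted p = 0.73), which turned to 0.12 with the GC offset and to 0.14 without NC replicate 2. CDH22, the other type II cadherin, had a log2 fold change of -0.26 (standard error 0.15, edgeR adjusted p = 0.18).

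**Figure D3:**
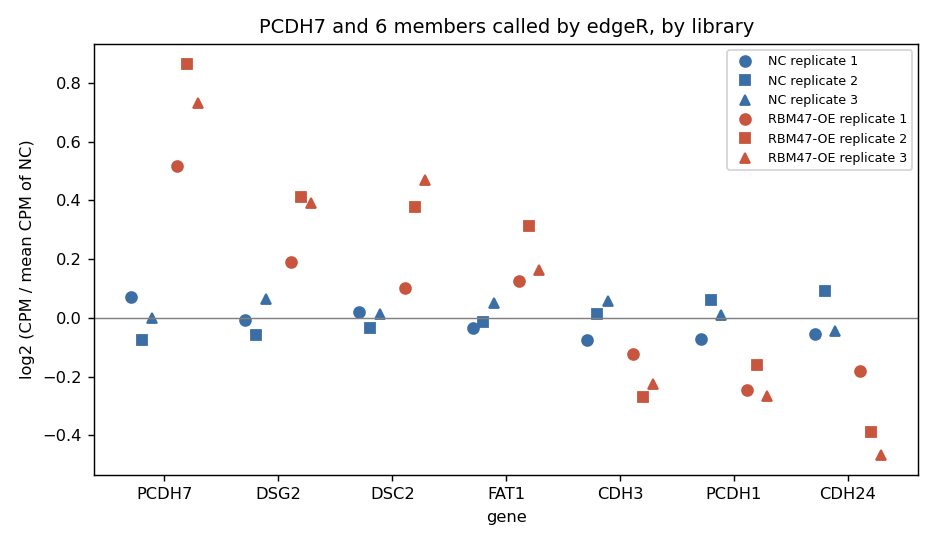
CPM (TMM-normalized) of PCDH7 and of the 6 members called by edgeR in each library, as the log2 ratio to the NC mean. In PCDH7, DSG2, DSC2 and FAT1 all red points (RBM47-OE) lie above the blue points (NC), and in CDH3, PCDH1 and CDH24 all lie below them.

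The clustered protocadherins were treated apart, and of their 7 tested members edgeR called 0, at an adjusted p under 0.05 and also at an unadjusted p under 0.05. Of all genes, 19.1% were higher and 16.9% lower at the adjusted threshold, and 23% and 21.3% at the unadjusted one. Standard errors of these 7 ran from 0.15 to 0.50. DESeq2 took all 9 clustered members and found 0 at an unadjusted p under 0.05. It called 0 of the 5 to which it gave an adjusted p, where 20.8% and 18% of all genes with such a value were higher and lower. The rule kept 3 of 7 listed alpha genes, 0 of 10 beta genes and 6 of 19 gamma genes. Levels were low, and PCDHAC2, the most abundant, stood at 0.68, 0.77 and 0.73 FPKM in the NC libraries and at 0.74, 0.70 and 0.70 in the RBM47-OE libraries. It had a log2 fold change of -0.10 (standard error 0.15, edgeR adjusted p = 0.64), and the groups overlapped. PCDHA1, PCDHGA1 and PCDHGA10, named after their values were seen, held 78 to 189 counts per library and changed by 0.03, 0.05 and -0.0039. The remaining gene-level changes ran from -0.73 for PCDHGA11, on 4 to 18 counts, to 0.37 for PCDHAC1, on 32 to 63 counts. PCDHGB2 held 12 and 16 counts in RBM47-OE replicates 1 and 2 and 0 in replicate 3, and it was not tested. The median log2 fold change of the 7 tested genes was -0.0039, against -0.02 for the 16 tested members that were neither clustered nor PCDH7.

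Summed into a single feature, which does not depend on how reads were divided among its own genes but does on reads given to other genes of an array or dropped, the 9 clustered members held 499, 793 and 566 counts in NC and 762, 603 and 602 in RBM47-OE. As CPM of the library total these were 18.6, 22.4 and 19.3 in NC and 23.1, 19.7 and 21.0 in RBM47-OE, and the groups overlapped. The sum had a log2 fold change of 0.02 (standard error 0.10, adjusted p = 0.90 in edgeR's quasi-likelihood test) and 0.05 with the GC offset. With each library left out it ran from -0.05 to 0.11, so its sign was not settled by these libraries. The alpha and gamma sums gave 0.02 (standard error 0.12) and 0.02 (standard error 0.13). The beta genes, which have no constant exons shared by the whole array and no member, held 6 to 21 counts per library in all 10 together, and their sum had a log2 fold change of 0.33 with a standard error of 0.45, too wide to show a difference of the size seen for PCDH7.

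**Figure D4:**
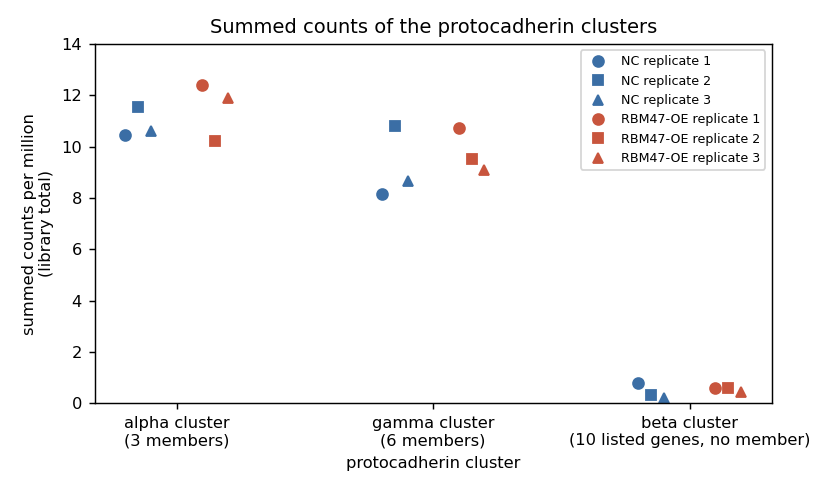
Summed CPM (per library total) of the 3 alpha members, the 6 gamma members and the 10 listed beta genes in each library. Blue points are NC and red points RBM47-OE, the groups overlap in all 3 arrays, and the alpha sums lie between 10.2 and 12.4 CPM.

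The 16 members that were neither clustered nor PCDH7 summed to 2451 ± 72.4 CPM of the library total (SD, n = 3) in NC and 2865 ± 236.9 CPM (SD, n = 3) in RBM47-OE, a log2 difference of 0.22 given without a test. FAT1 accounted for most of it. Without FAT1 the sums were 751.4 ± 20.2 and 818.5 ± 43.1 CPM, a log2 difference of 0.12. Scaling to library totals itself moved the median of all genes to 0.06. On TMM-normalized CPM, a scaling added after the data were seen, the log2 differences were 0.16 with FAT1 and 0.06 without it.

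Members that moved in opposite directions differed in base composition. Across the 24 tested members, Spearman's rho between the log2 fold change and exonic GC content was -0.71, and without PCDH7 it was -0.68 over 23. Over 16233 tested genes it was -0.63. Taken by transcript part, rho across the 24 members was -0.76 with the GC content of the 3' UTR and -0.41 with that of the coding part. Over all genes rho was not computed by transcript part, so these 2 values are not shown to be particular to the members. These are descriptions across genes of the same 6 libraries, and genes of an array share their 3' UTR, so no p-value was attached. PCDH7, DSG2, DSC2 and FAT1 had 3' UTRs of 33.6%, 35.3%, 36.4% and 36.7% GC, and CDH3, PCDH1 and CDH24 had 3' UTRs of 47.8%, 59.9% and 60.9%.

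**Figure D5:**
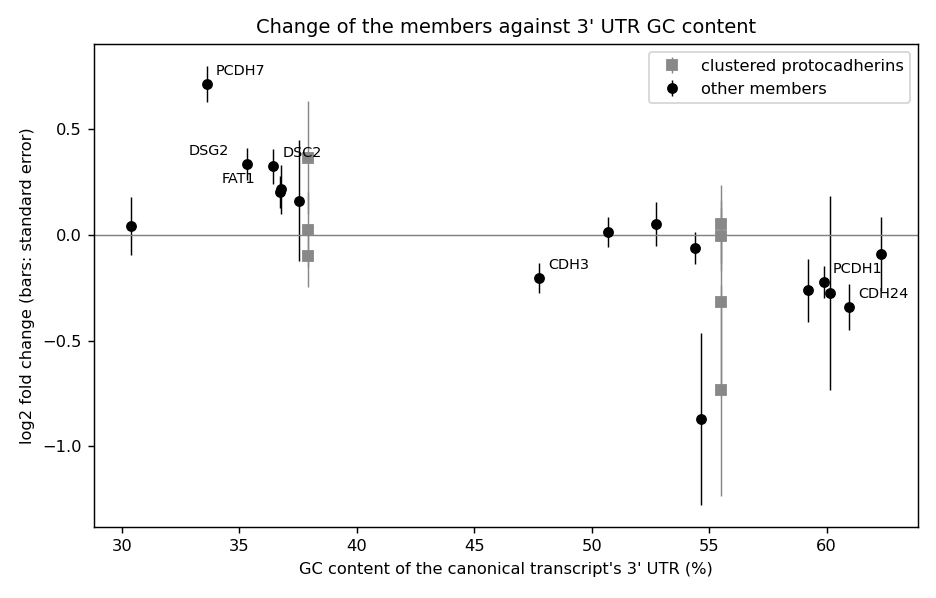
Log2 fold change of the 24 tested members, with bars for the standard error, against the GC content of the 3' UTR of the canonical transcript in percent. Black points are other members and grey squares clustered protocadherins, which share a 3' UTR within each array, and PCDH7 and the 3 members called higher lie between 33.6% and 36.7% GC.

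A short AU-rich motif was read from these 3' UTRs because of this split. The motif was TATTTAT, the core of a common AU-rich element, searched on the sense strand of the 3' UTR of canonical transcripts. TTTTT, which can share an end base with it, was counted as well. Windows around the first TATTTAT match of a 3' UTR are shown for PCDH7, the members called higher and, for comparison, the shared alpha 3' UTR. These windows have 8 bases on either side, and capitals mark the motif. They lie at chr4:31143972-31143994 (plus strand), chr18:31548038-31548060 (plus), chr18:31066613-31066635 (minus), chr4:186588289-186588311 (minus) and chr5:141011597-141011619 (plus) of GRCh38, in this order.
PCDH7: taaaatagTATTTATggatcatg
DSG2: aggccctgTATTTATgtaattct
DSC2: gaattttcTATTTATactaaaca
FAT1: gattcatgTATTTATatagattt
PCDHA shared 3' UTR: aggaatttTATTTATggtccagc
The 3' UTRs of PCDH7, DSG2, DSC2 and FAT1 held 2, 1, 4 and 1 matches, and those of CDH3, PCDH1 and CDH24 held 0. DSC3 also held 0 matches in 4810 bases. Among the 17 other tested members, 12 held the motif, all clustered genes included. Over 12731 tested genes with a 3' UTR of at least 100 bases, 35.9% held it, with 58.0% of those called higher and 16.7% of those called lower. TTTTT lay in the 3' UTR of PCDH7, of all 6 called members and of 82.0% of the tested genes, with 97.0% of those called higher and 66.1% of those called lower. The genes called higher also had longer and more AT-rich 3' UTRs, with medians of 2355 bases and 34.9% GC against 707 bases and 53.9% GC in the genes called lower. Length, base composition and the motif therefore cannot be told apart in these counts.

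The genes that work with cadherins were taken from lists set by known role. Of 73 such genes in the count table, 65 were tested, and in edgeR's quasi-likelihood test 19 were higher and 10 lower in RBM47-OE at an adjusted p under 0.05, or 29.2% and 15.4%, where 19.1% and 16.9% of all genes were. In this fit 0 met the study's thresholds. DESeq2 put ADAM10 past them, at a log2 fold change of 0.59, and edgeR without RBM47-OE replicate 1 put ADAM10, STAG1 and STAG2 past them, at 0.68, 0.71 and 0.61. With the GC offset 4 were higher and 7 lower, or 6.15% and 10.8%, where 5.97% and 8.57% of all genes were. The shares of all genes given here also apply to the counts of the single lists below.

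Catenins link classical cadherins to actin, and of 7 tested 1 was higher and 1 lower. JUP (plakoglobin), which serves both adherens junctions and desmosomes, fell from a mean of 68.0 to 60.1 FPKM (log2 fold change -0.25, standard error 0.073, edgeR adjusted p = 0.010), and its change was -0.04 with the GC offset. CTNNA1 (alpha-catenin) stood at 53.7 and 52.6 FPKM (edgeR adjusted p = 0.29). With the GC offset 1 catenin was higher, ARVCF at 0.30 (edgeR adjusted p = 0.016), and 1 lower, CTNNB1 at -0.22 (edgeR adjusted p = 0.018). Both were named after their values were seen, and neither was called without the offset (edgeR adjusted p = 0.52 and 0.78). Of 6 genes of the desmosomal plaque, PERP, a tetraspan protein of desmosomes, was higher, from 41.6 to 50.4 FPKM (log2 fold change 0.20, edgeR adjusted p = 0.021), with a change of -0.07 under the GC offset, and 0 were lower. PKP3 (plakophilin) stood at 37.1 and 34.6 FPKM (edgeR adjusted p = 0.069), and DSP (desmoplakin), named after its value was seen, at 17.8 and 20.8 (edgeR adjusted p = 0.10). At an unadjusted p under 0.05, 3 of these plaque genes were higher and 1 lower in edgeR, where 23% and 21.3% of all genes were. DESeq2 called 2 higher and 0 lower at an adjusted p under 0.05, where 20.8% and 18% of all genes with such a value were.

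Proteases release cadherins from the cell surface, and of 9 tested genes of shedding and gamma-secretase 2 were higher and 2 lower. The most abundant, APH1A and FURIN, stood at 38.8 and 37.7 FPKM and at 29.5 and 29.0 FPKM in NC and RBM47-OE and did not pass (edgeR adjusted p = 0.24 and 0.35). ADAM10, the main sheddase of cadherins, was named after its value was seen. It had a log2 fold change of 0.58 (standard error 0.079, edgeR adjusted p = 2.7e-05), or 0.23 with the GC offset (edgeR adjusted p = 0.0054). PSENEN, a gamma-secretase subunit named on the same footing, was lower in both fits, at -0.36 (edgeR adjusted p = 0.0021) and -0.31 with the GC offset (edgeR adjusted p = 0.0066).

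Of 10 planar polarity genes, which work with the CELSR and FAT cadherins, 2 were higher and 2 lower, and in edgeR with the GC offset 0 were called in either direction, also at an unadjusted p under 0.05. Of all genes in the fit with the offset, 5.97% were higher and 8.57% lower at the adjusted threshold, and 12.9% and 15.3% at the unadjusted one. DESeq2 without the offset called 2 higher and 3 lower, where 20.8% and 18% of all genes with an adjusted p were. DVL1 stood at 49.5 and 46.5 FPKM (edgeR adjusted p = 0.073) and DVL2 at 13.6 and 12.2 FPKM (log2 fold change -0.22, edgeR adjusted p = 0.022, or -0.03 with the GC offset). Both encode Dishevelled proteins, which relay Frizzled signals. Of 3 tested cadherin-related genes outside the rule, CLSTN1, CLSTN3 and CDHR3, edgeR called 0, also at an unadjusted p under 0.05. Their edgeR log2 fold changes were -0.11, -0.06 and 0.10. Of all genes, edgeR called 19.1% higher and 16.9% lower, and 23% and 21.3% passed at the unadjusted threshold. DESeq2 called 0 of the 3 to which it gave an adjusted p.

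Chromatin proteins that loop or silence the protocadherin arrays were the list with most calls, with 8 higher and 3 lower of 17. These were 47.1% and 17.6%, where 19.1% and 16.9% of all genes were. The higher genes were mainly of the cohesin complex and its regulators, which were RAD21, SMC3, STAG1, STAG2, NIPBL, WAPL and PDS5A, with SMCHD1, of which all but RAD21 are named after their values were seen. RAD21, a cohesin subunit, rose from 46.1 to 59.5 FPKM (log2 fold change 0.29, standard error 0.073, edgeR adjusted p = 0.0029), although with the GC offset its change was -0.06. TRIM28, a corepressor of zinc-finger proteins, fell from 187.4 to 140.8 FPKM (log2 fold change -0.48, standard error 0.076, edgeR adjusted p = 6.6e-05), or -0.27 with the GC offset (edgeR adjusted p = 0.0045). CTCF, which binds the array promoters with cohesin and was named after its value was seen, stood at 5.43 and 5.85 FPKM (edgeR adjusted p = 0.76). Under the GC offset 2 genes of this list were higher, STAG1 and STAG2, and 3 lower, TRIM28, WIZ and PDS5B, the last of which was not called without it (edgeR adjusted p = 0.25). These were 11.8% and 17.6% of the list, where 5.97% and 8.57% of all genes were. The summed protocadherin counts beside these changes differed by 0.02 on the log2 scale, as given above.

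Of 13 intracellular partners of protocadherins, 5 were higher and 2 lower, or 38.5% and 15.4%, where 19.1% and 16.9% of all genes were. With the GC offset 0 were higher and 1 lower, where 5.97% and 8.57% of all genes were. SET, which binds the cytoplasmic part of PCDH7, rose from 127.6 to 153.3 FPKM (log2 fold change 0.19, standard error 0.074, edgeR adjusted p = 0.042), and with the GC offset its change was 0.03 (edgeR adjusted p = 0.79). PPP1CA, the phosphatase PP1 alpha, was named after its value was seen and fell from 66.8 to 56.4 FPKM (log2 fold change -0.31, standard error 0.072, edgeR adjusted p = 0.0017), with -0.10 under the GC offset (edgeR adjusted p = 0.22). BRK1, a subunit of the WAVE complex that regulates actin, stood at 91.6 and 98.4 FPKM (edgeR adjusted p = 0.76).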

How the data were processed

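Reads were filtered and trimmed by the authors (FASTX-Toolkit) and mapped to GRCh38 (HISAT2), and the deposited counts are uniquely mapped reads per gene, without normalization. The FPKM table, deposited alongside, was computed by the authors from the same alignments for 28244 genes. The counting tool, annotation release and use of strand are not given in the sources used here.

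Counts were tested with edgeR 4.0.16 in R 4.3.3 (filterByExpr with a minimum count of 10 and minimum total of 15, TMM, quasi-likelihood test, condition as the only term). Standard errors were derived from the F statistic. Loess offsets used a span of 0.3. Exons and 3' UTRs came from GENCODE 44, matched for 28416 genes. Alternatives used DESeq2 1.42.0 and limma 3.58.1, the latter on log2 FPKM after adding 1 or 0.1, where the mean FPKM reached 0.1. On simulated counts of 16260 genes, edgeR recovered 99 of 100 genes changed by 0.75 on the log2 scale. The changed genes were drawn from the better-expressed ones only. This rate therefore does not cover members with low counts or changes smaller than 0.75.

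The members and lists were chosen with earlier results of these data known. Members named by rule were PCDH7, those called, and the most abundant and the most abundant uncalled of each subgroup, with the 2 most abundant genes of each partner list. No library pair of a group was a duplicate. Same-numbered libraries of the groups did not deviate together (correlations of -0.060, -0.015 and -0.016), so the numbers were not taken as pairs.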

Additional observations from a re-analysis of the deposited data

How the results depend on the processing

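With PCDH7 counted among them, the 4 members higher in RBM47-OE became 2 with the GC offset and 2 with limma on log2(FPKM + 0.1) without a filter, and 3 to 5 with each library left out. The count of 3 members lower was 0 with library totals, with the GC offset, with the GC offset and the replicate block, and with limma on log2(FPKM + 1) and on log2(FPKM + 0.1) with and without a filter, and it ran from 0 to 3 with each library left out, at 0 without NC replicate 2 or RBM47-OE replicate 3 and at 1 without NC replicate 3 or RBM47-OE replicate 2. The count at the study's thresholds was 1 with PCDH7 included. It was 0 with the GC offset, with the GC offset and the replicate block, and with the length offset. PCDH7 was selected for its rise, so its place in this count and among the members higher is a description and not a test. Of the other 23 tested members, 0 met these thresholds in edgeR, with or without the GC offset. PCDH7 was at 0.51 with the GC offset and at 0.51 with the GC offset and the replicate block. The 29 partner genes called became 11 with the GC offset, and 16 to 37 with each library left out, with 16 without NC replicate 2 and 19 without NC replicate 3. The sum of the other members, a log2 difference of 0.22 on library totals, was 0.16 with TMM factors and 0.060 with TMM factors and without FAT1, both added after the data were seen. The summed clustered protocadherins ran from -0.052 (without RBM47-OE replicate 1) to 0.11 (without NC replicate 2). Among uncalled members, the sign turned for CDH15 (0.12 with the GC offset, 0.14 with the GC offset and the replicate block, 0.0055 with limma on log2(FPKM + 0.1) with and without a filter, and -0.19 to 0.14 with each library left out), for CELSR2 (0.0010 with library totals, 0.15 with the GC offset, 0.15 with the GC offset and the replicate block, 0.0056 with limma on log2(FPKM + 1) and 0.0063 on log2(FPKM + 0.1) with and without a filter), for DSC3 (-0.093 with the GC offset, -0.088 with the GC offset and the replicate block) and for PCDH19 (-0.0043 to 0.39 with each library left out). With the replicate block, 3 members were higher, 2 lower and 24 partner genes called, FAT1 and CDH3 had edgeR adjusted p-values of 0.12 and 0.063, PCDH7 was at 0.71, and no library correlated best with its own number. The cause of these moves was not tested. Library totals shifted the all-gene median to 0.06 on the log2 scale and gave 3693 genes higher and 1889 lower, against 3100 and 2740 with TMM and 971 and 1393 with the GC offset. Limma gave 2872 and 1586 of 17587 genes on log2(FPKM + 1), and 1857 and 1065 of 28244 on log2(FPKM + 0.1) without a filter. Depth limited the least counted tested members, of which PCDHGA11, DCHS1, PCDHGB7 and FAT2 had standard errors of 0.41 to 0.50.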

Other observations

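SYT1, a synaptic vesicle protein on the list of neuron markers, stood at 6.66, 5.64 and 6.57 FPKM in the NC libraries and at 7.94, 8.55 and 8.87 in the RBM47-OE libraries, whereas the neuron markers SNAP25 and RBFOX3 had group means of 0.13 and 0.0033 FPKM in NC. Among the gamma protocadherins, PCDHGC3, PCDHGC4 and PCDHGC5, the genes nearest to the shared exons, had mean counts of 0.50, 0.33 and 1.33, while PCDHGA1 and PCDHGA10 had 123.3 and 128.5. Their names were chosen after their values were seen. The gene length implied by the deposited counts and FPKM was 1.12 to 1.14 times the exonic length in GENCODE 44 on the same scale for the 5 clustered members with a value, 1.13 at the median of genes without shared exons and 1.07 for PCDH7.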
